A study of Mus musculus with 6 samples.

Results

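The genes described here are 7 immediate-early genes of mouse cortical cultures, namely Egr1, Egr2, Egr3, Egr4, Srf, Ier2 and Ier5. They were taken by symbol from the 31245 genes of the deposited table, and each matched 1 Ensembl identifier. All 7 passed the filter on low values (a mean normalized count of at least 10), as did 16653 genes in all. RNA came from 6 primary cortical neuronal cultures prepared from P1 mouse pups and treated at DIV 12 to 13 (days in vitro). Of these, 3 were exposed to NGPF2 at 1.5 ng/ml and 3 to PBS vehicle, each for 2 h, and the labels do not spell out the name NGPF2. The sources used here give no strain, genotype or sex, and they do not say how many pups went into a culture. Cortical cultures of this kind can hold glia beside neurons. The series describes 3 pairs of vehicle and NGPF2 cultures from 3 independent experiments. Library names in the titles set replicates 2 and 3 of both groups apart from replicate 1, so each result is given for the 3 pairs and for these 2 library sets.

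Immediate-early genes are transcribed within minutes of a stimulus without new protein synthesis. In neurons, synaptic activity and growth factors reach them through calcium entry, the ERK kinase cascade and CREB. Serum response factor (Srf) sits at their promoters, where it binds the CArG box together with ternary complex factors such as ELK1 or with actin-sensing MRTF coactivators. The EGR proteins are zinc finger transcription factors that are themselves induced in this way and bind GC-rich elements in the next set of genes, while the corepressors NAB1 and NAB2 hold them in check. IER2 and IER5 are small induced nuclear proteins, and IER5 is known to act on the heat shock factor HSF1 together with the phosphatase PP2A.

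Promoters of 4 of the 7 genes matched the RefSeq table (GRCm38.p6), and the 250 bases before the start are shown for all 4. Egr1, Egr3 and Ier2 had no match. Of the 4 genes shown, Srf and Ier5 were higher with NGPF2 in replicates 2 and 3, and Egr2 and Egr4 did not pass the test. Capitals mark matches, on either strand, to the CArG box (CC and GG around a run of A or T), to the short cAMP response site TGACG, to the full cAMP response element TGACGTCA and to the EGR element GCGTGGGCG. The full element contains the short site. For Egr2, the third of 5 listed starts is printed, chosen because its window holds both kinds of match. The windows are chr17:46556163-46556412 (minus strand) for Srf, chr1:155099637-155099886 (minus strand) for Ier5, chr10:67537619-67537868 (plus strand) for Egr2 and chr6:85513590-85513839 (minus strand) for Egr4.
Srf: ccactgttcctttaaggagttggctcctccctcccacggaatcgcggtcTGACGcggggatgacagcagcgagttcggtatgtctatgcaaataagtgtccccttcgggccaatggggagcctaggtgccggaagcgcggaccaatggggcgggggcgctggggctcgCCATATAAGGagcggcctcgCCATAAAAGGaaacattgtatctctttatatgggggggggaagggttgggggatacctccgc
Ier5: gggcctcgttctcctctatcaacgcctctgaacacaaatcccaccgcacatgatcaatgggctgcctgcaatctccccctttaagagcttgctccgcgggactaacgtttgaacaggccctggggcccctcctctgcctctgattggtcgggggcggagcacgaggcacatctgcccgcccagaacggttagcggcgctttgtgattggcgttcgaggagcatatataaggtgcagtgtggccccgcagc
Egr2: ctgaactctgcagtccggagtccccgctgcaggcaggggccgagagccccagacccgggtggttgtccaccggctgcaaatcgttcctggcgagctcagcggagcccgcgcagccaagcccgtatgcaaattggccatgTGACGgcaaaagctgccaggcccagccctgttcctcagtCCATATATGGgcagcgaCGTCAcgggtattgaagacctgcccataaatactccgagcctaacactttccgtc
Egr4: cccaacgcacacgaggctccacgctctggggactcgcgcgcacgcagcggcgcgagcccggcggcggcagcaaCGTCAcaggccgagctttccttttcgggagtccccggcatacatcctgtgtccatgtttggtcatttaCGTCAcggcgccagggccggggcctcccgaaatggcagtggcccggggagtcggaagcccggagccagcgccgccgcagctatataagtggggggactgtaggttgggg

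The Srf window held 2 CArG boxes, from 82 to 73 and from 62 to 53 bases before the start, and the Egr2 window held 1, from 72 to 63. Of the windows of the 5 Egr2 starts, the first held no match, the second a CArG box without a short site, and the other 3 both. A CArG box was present in 482 of all 32851 promoter windows of this length (1.47%), a share over unselected windows with which the chosen Egr2 window is not compared. Short sites stood in the windows of Srf (1), Egr2 (2) and Egr4 (2), and in 17.8% of all windows. Neither the full element (1.55% of all windows) nor the EGR element (0.536%) was found in the 4 windows, and the Ier5 window held none of the motifs searched. These matches describe letters only and no binding was measured.

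Sequencing depth ran from 17478070 to 45193691 counts per library, with NGPF2 replicate 3 the shallowest. Counts of the 7 genes ran from 129 (Egr2 in NGPF2 replicate 3) to 11477 (Egr3 in NGPF2 replicate 2), with 95% exact Poisson intervals of ± 17.7% and ± 1.83%, which cover counting error only. Levels below are normalized counts, that is, counts scaled by each library's size factor. The neuronal label was met by Tubb3, Map2 and Snap25, each at 12359 normalized counts or more in every library. Astrocyte markers were also present: Gfap stood at 2914 and 3029.5 in vehicle 1 and NGPF2 1, at 9219 and 9265 in vehicle 2 and 3, and at 312 and 267 in NGPF2 2 and 3. Vehicle 1 and NGPF2 1 differed from each other by an SD of 0.333 (log2, over 12925 genes), close to the 0.369 between vehicle 2 and 3 and below the 0.696 between vehicle 2 and NGPF2 2.

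In replicates 2 and 3, 3 of the 7 genes rose with NGPF2 (Egr3, Ier5 and Srf), 1 fell (Egr1), and Egr2, Egr4 and Ier2 did not pass. In pair 1 the 7 differences lay between -0.16 and 0.32 on the log2 scale. Over the 3 pairs 0 of the 7 passed (limma, adjusted p from 0.379 to 0.744). That count has a background of 0% there, because 0 of 16653 genes passed, with 2166 at an unadjusted p under 0.05 and 0 called by voom. Without replicate 1, which leaves the pairs of replicates 2 and 3, Egr3, Srf and Ier5 passed in the same fit (adjusted p = 0.00101, 0.0128 and 0.00147). Within replicates 2 and 3 (2 libraries against 2), 21.1% of all genes tested passed, with 9.77% higher and 11.3% lower. The median difference of the 7 genes was 0.22 against -0.003 for all genes. The p-values measure only the spread between these libraries. Each gene kept its direction when the libraries were scaled by quantiles or by their totals, the latter of which moved the median of all genes by -0.13 in replicates 2 and 3.

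**Figure D1:**
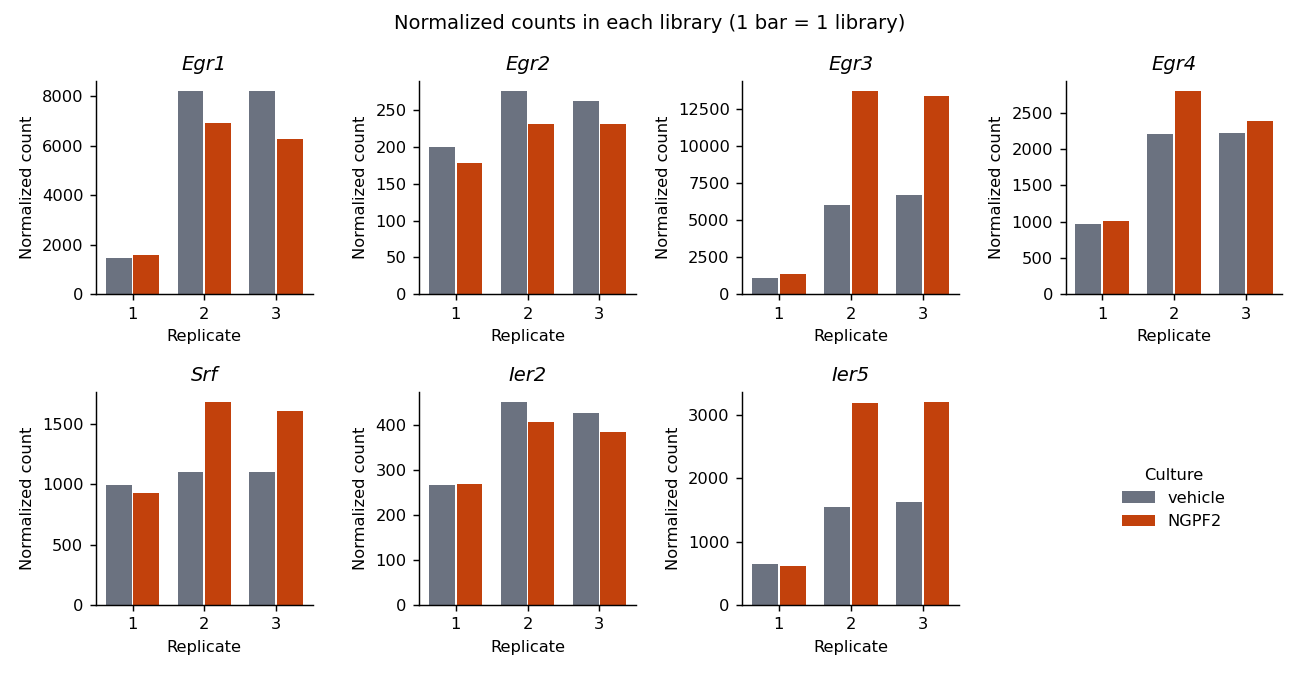
Normalized counts (y axis, separate scale per gene) of the 7 genes by replicate number, 1 bar per library, vehicle in grey and NGPF2 in orange. Egr3, Srf and Ier5 are higher in NGPF2 replicates 2 and 3 than in any vehicle library, and all 7 genes are lower in both replicate 1 libraries than in the other 4 libraries.

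Srf (ENSMUSG00000015605, mm10 chromosome 17, 46548329 to 46556175), the factor that binds the CArG box, acts upstream of many immediate-early genes. It stood at 991, 1099 and 1103 normalized counts in vehicle 1, 2 and 3, and at 926, 1684.5 and 1612 in NGPF2 1, 2 and 3. The vehicle libraries lay close together, and the 2 high values were both NGPF2 libraries of replicates 2 and 3. The log2 difference in replicates 2 and 3 was 0.58 (SE 0.08), which is 1.50-fold (95% interval 1.31 to 1.71, limma adjusted p = 0.00959). Of all genes tested, 8.49% differed upwards by as much. In pair 1, Srf was lower by 0.10 (log2), and over the 3 pairs the difference was 0.35 (SE 0.17, limma adjusted p = 0.406). Over all 3 replicates the group means (± SD, n = 3) were 1064 ± 63.4 for vehicle and 1407 ± 419 for NGPF2, and the groups overlapped.

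Among the EGR factors, Egr3 (ENSMUSG00000033730, mm10 chromosome 14, 70077203 to 70082614), an activity-induced factor with a role in muscle spindle formation, had the largest NGPF2 difference. It stood at 1107, 5994 and 6695 normalized counts in vehicle 1, 2 and 3, and at 1384, 13721 and 13416 in NGPF2 1, 2 and 3. Within each library set, NGPF2 libraries were above vehicle, although NGPF2 1 lay far below vehicle 2 and 3. The rise in replicates 2 and 3 was 2.14-fold (95% interval 1.87 to 2.46, log2 1.10, SE 0.08, limma adjusted p = 0.00245). Of all genes tested, 402 (2.41%) differed upwards by as much. In pair 1 the difference was 0.32 (log2), a size that 9.23% of genes reached or passed there, and over the 3 pairs it was 0.84 (SE 0.18, limma adjusted p = 0.379). The difference was positive in 3 of 3 pairs. Group means (± SD, n = 3) were 4598 ± 3044 for vehicle and 9507 ± 7036 for NGPF2.

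Egr4 (ENSMUSG00000071341, mm10 chromosome 6, 85511121 to 85513589), the EGR member without the NAB-binding domain, was also higher with NGPF2 in 3 of 3 pairs but did not pass. Vehicle 1, 2 and 3 held 966, 2204 and 2229 normalized counts, and NGPF2 1, 2 and 3 held 1009, 2801 and 2392. The last 2 NGPF2 values were the highest of the 6 libraries. The 2 NGPF2 libraries of replicates 2 and 3 differed from each other by 0.23 (log2), as much as the mean difference from vehicle of 0.22 (SE 0.10, limma adjusted p = 0.166). The 95% interval of that difference ran from 0.984-fold to 1.39-fold. The difference was 0.34 without NGPF2 replicate 3 and 0.11 without NGPF2 replicate 2, fits that leave 1 NGPF2 library.

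Egr1 (ENSMUSG00000038418, mm10 chromosome 18, 34859823 to 34864984), also known as Zif268, is the EGR gene most used as a marker of neuronal activity. It stood at 1461, 8195 and 8199 normalized counts in vehicle 1, 2 and 3, and at 1589, 6920 and 6269 in NGPF2 1, 2 and 3. Vehicle 2 and 3 were nearly equal, and both NGPF2 libraries of the same set were lower, whereas NGPF2 1 was slightly above vehicle 1. In replicates 2 and 3 Egr1 fell by 0.32 (log2, SE 0.07), or 1.24-fold (limma adjusted p = 0.0408). With the replicate number as a block in this fit, the adjusted p was 0.0522, and without NGPF2 replicate 3 it was 0.0592. The call was also lost with no filter on low values (adjusted p = 0.156) and with no variance trend (adjusted p = 0.140). Over the 3 pairs the difference was -0.17 (SE 0.13, limma adjusted p = 0.534). Group means (± SD, n = 3) were 5952 ± 3889 for vehicle and 4926 ± 2908 for NGPF2.

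Egr2 (ENSMUSG00000037868, mm10 chromosome 10, 67535475 to 67542188), which directs hindbrain patterning and Schwann cell myelination, was the lowest member. It stood at 199.9, 276 and 262 normalized counts in vehicle 1, 2 and 3, and at 178, 231 and 232 in NGPF2 1, 2 and 3. Each NGPF2 library was below the vehicle library of its pair. The difference did not pass in replicates 2 and 3 (-0.22, SE 0.13, 95% interval 0.684-fold to 1.08-fold, limma adjusted p = 0.284) or over the 3 pairs (-0.20, SE 0.15, limma adjusted p = 0.544). Its 129 to 310 counts per library were the fewest of the 7 genes.

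Ier5 (ENSMUSG00000056708, mm10 chromosome 1, 155096361 to 155099636) rose with NGPF2 in replicates 2 and 3, and Ier2 did not pass. Ier5 stood at 644, 1551 and 1628 normalized counts in vehicle 1, 2 and 3, and at 619, 3185 and 3209 in NGPF2 1, 2 and 3. The 2 NGPF2 libraries of replicates 2 and 3 lay within 0.754% of each other and far above every other library. That gap is smaller than the counting error, with 95% exact Poisson intervals of ± 3.82% for NGPF2 2 and ± 4.66% for NGPF2 3. The rise was 2.01-fold (95% interval 1.78 to 2.28, log2 1.01, SE 0.07, limma adjusted p = 0.00239), and 2.89% of all genes differed upwards by as much. In pair 1, Ier5 was lower by 0.06 (log2), and over the 3 pairs the difference was 0.65 (SE 0.24, limma adjusted p = 0.379).

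Ier2 (ENSMUSG00000053560, mm10 chromosome 8, 84661331 to 84662852) stood at 266, 452 and 428 normalized counts in vehicle 1, 2 and 3, and at 269, 408 and 386 in NGPF2 1, 2 and 3. Its difference was 0.02 (log2) in pair 1 and -0.15 in both pair 2 and pair 3. In replicates 2 and 3 the interval ran from 0.742-fold to 1.10-fold (limma adjusted p = 0.384). Over the 3 pairs the difference was -0.09 (SE 0.14, limma adjusted p = 0.744).

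When vehicle 2 or vehicle 3 was left out, 0 of 16653 genes passed, and the adjusted p of Egr1, Egr3, Srf and Ier5 lay between 0.125 and 0.251. In these fits the vehicle arm is 1 library, assumed to vary like the 2 NGPF2 libraries, from which each gene's own spread is then taken. The differences themselves moved little: without vehicle 2 and without vehicle 3 they were 1.02 and 1.18 for Egr3, 0.97 and 1.04 for Ier5, 0.58 and 0.58 for Srf, and -0.32 and -0.32 for Egr1. The NGPF2 effect itself differed between the library sets for Ier5, by 1.06 (log2, SE 0.13, limma adjusted p = 0.0310, interaction of group and library set), a call that was lost with no variance trend (adjusted p = 0.120) and when any 1 of the 4 libraries of replicates 2 and 3 was left out (0.0533 to 0.345). It did not pass for Egr3 (0.78, SE 0.14, adjusted p = 0.0627), Srf (0.68, SE 0.14, adjusted p = 0.0788), Egr1 (-0.44, SE 0.13, adjusted p = 0.162) or the other 3 genes (adjusted p from 0.665 to 0.922). Under other settings of this limma test, Egr3 passed with a minimum mean of 50 (adjusted p = 0.0430) and with voom (adjusted p = 0.0309). Srf passed with no filter on low values (adjusted p = 0.0178) and with voom (adjusted p = 0.0354). Of all genes, 2.49% passed this test, 0.721% in the direction of Ier5. It takes the spread in replicate 1, with 1 library per group, to be that of replicates 2 and 3.

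**Figure D2:**
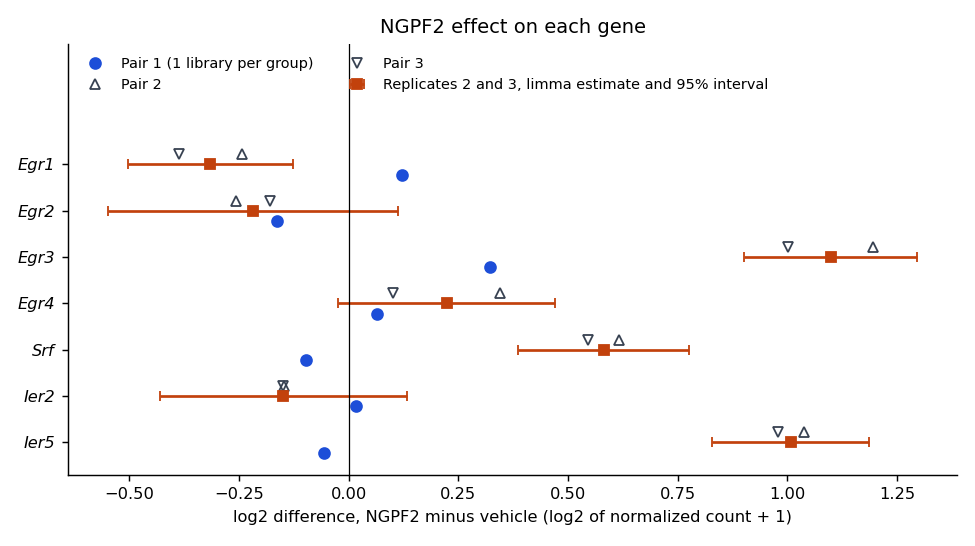
The log2 difference (x axis) between NGPF2 and vehicle for each gene, with the limma estimate and 95% interval for replicates 2 and 3 (squares) and the difference in each single pair (circles for pair 1, triangles for pairs 2 and 3). For Egr3, Srf and Ier5 the pair 1 value lies below the interval of replicates 2 and 3, and for Egr1 it lies above it.

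Averaged over the groups, the library set difference exceeded the NGPF2 difference in replicates 2 and 3 for 6 of the 7 genes. It was smaller for Srf (0.49 against 0.58, log2). With the group in the model, 5 of the 7 genes were higher in replicates 2 and 3 than in replicate 1 (limma, 6 libraries), where 27.5% of all genes tested passed, with 14.0% higher and 13.5% lower. Egr3 was 7.49-fold higher (log2 2.90, SE 0.17, adjusted p = 0.000423), Egr1 4.82-fold (log2 2.27, SE 0.12, adjusted p = 0.000270), Ier5 3.56-fold (log2 1.83, SE 0.23, adjusted p = 0.00323), Egr4 2.42-fold (log2 1.28, SE 0.10, adjusted p = 0.000857) and Ier2 1.56-fold (log2 0.64, SE 0.12, adjusted p = 0.0125). By size of the difference upwards, Egr3 had rank 83 and Egr1 rank 170 among the 16653 genes. Egr2 (0.40, SE 0.13, adjusted p = 0.0724) and Srf (0.49, SE 0.16, adjusted p = 0.0661) did not pass. Egr2 passed with quantile scaling (adjusted p = 0.0227) and with no variance trend (adjusted p = 0.0465). The fit takes 1 set difference for both groups, so it averages over an NGPF2 effect that differs between the sets, as called above for Ier5. Without NGPF2 replicate 1 and without vehicle replicate 1, the set difference was 0.15 and 0.83 for Srf and 1.30 and 2.37 for Ier5. For Egr3 it was 2.52 and 3.29, and for Egr1, in the other order of size, 2.49 and 2.05. The first value of each rests on vehicle libraries and the second on NGPF2 libraries, with 1 library in replicate 1. Without vehicle replicate 2, Ier2 did not pass (adjusted p = 0.0509). The sets also differed in cell markers. The pan-neuronal list had a median difference of 1.07 (4 of 8 higher and 1 lower, Tubb3 at -0.86). The excitatory list had one of -0.09 (3 of 9 higher, 2 lower). The excitatory list summed to 36591 to 36754 normalized counts in replicate 1 and to 114905 to 165239 in replicates 2 and 3, of which Camk2a alone made up 12518 to 13081 and 47771 to 85540. The inhibitory list (median -1.01) summed to 114725 to 120427 against 49744 to 66239.5, and the fibroblast and mural list to 4214 to 4636 against 448 to 835. The part of these markers in the set differences was not tested, and what else set the libraries apart cannot be told apart from the set.

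**Figure D3:**
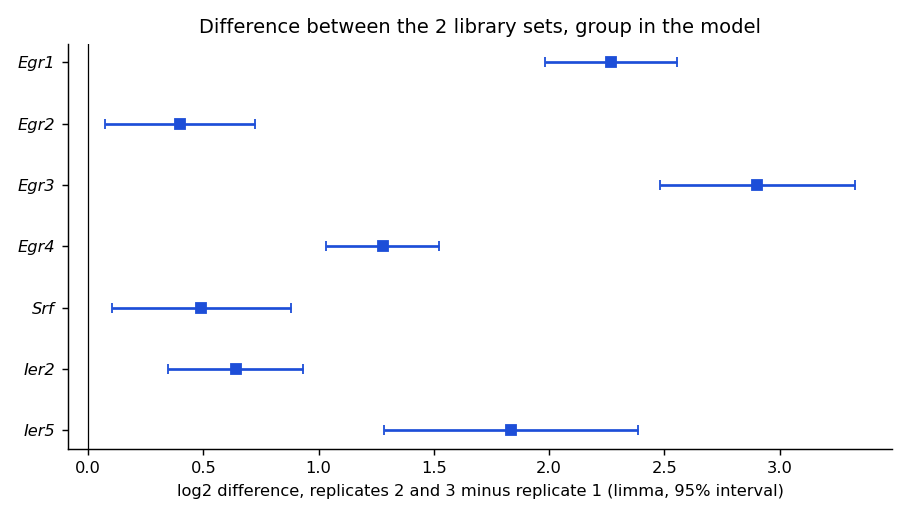
The log2 difference (x axis) between replicates 2 and 3 and replicate 1 for each gene, averaged over vehicle and NGPF2. Values are limma estimates with 95% intervals over 6 libraries and with the treatment group in the model. All 7 estimates are positive, from 0.40 for Egr2 to 2.90 for Egr3, and the intervals are not adjusted for multiple testing.

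Levels of different genes were compared as FPKM, computed here from the recovered counts, the merged exon length and the library total. In vehicle replicates 2 and 3 the order was Egr1 (62.2 and 63.1), Egr3 (46.3 and 52.4), Egr4 (34.9 and 35.8), Ier5 (16.1 and 17.1), Srf (12.9 and 13.2), Ier2 (10.1 and 9.70) and Egr2 (2.76 and 2.66). In NGPF2 replicates 2 and 3, Egr3 stood first (96.1 and 97.1), ahead of Egr1 (47.6 and 44.6), and the order of the other 5 genes was the same. No 2 neighbours in either order overlapped. In replicate 1, Egr4 was highest (15.6 FPKM with vehicle and 16.3 with NGPF2) and Egr2 lowest (2.04 and 1.82). Srf (11.9 and 11.1), Egr1 (11.3 and 12.3) and Egr3 (8.70 and 10.9) lay between them, and Srf and Egr1 changed places between the 2 libraries.

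The make-up of the EGR family was compared within libraries, a measure that does not depend on how libraries are scaled. Vehicle libraries 1, 2 and 3 had a ratio of Egr3 to Egr1 FPKM of 0.771, 0.744 and 0.831, whereas NGPF2 libraries 1, 2 and 3 had 0.887, 2.02 and 2.18. NGPF2 2 and 3 stood apart from the other 4 libraries, which lay close together. Egr3 supplied 31.7% and 34.0% of the summed Egr1 to Egr4 FPKM in vehicle 2 and 3, against 51.6% and 54.1% for NGPF2 2 and 3. Egr1 supplied 42.5% and 41.0% in those vehicle libraries and 25.6% and 24.9% in those with NGPF2. For Ier5 to Ier2, the ratio ran 1.12, 1.59 and 1.77 over vehicle libraries 1, 2 and 3, against 1.07, 3.63 and 3.86 over the NGPF2 libraries. A ratio shows unequal change and not which of the 2 genes moved.

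**Figure D4:**
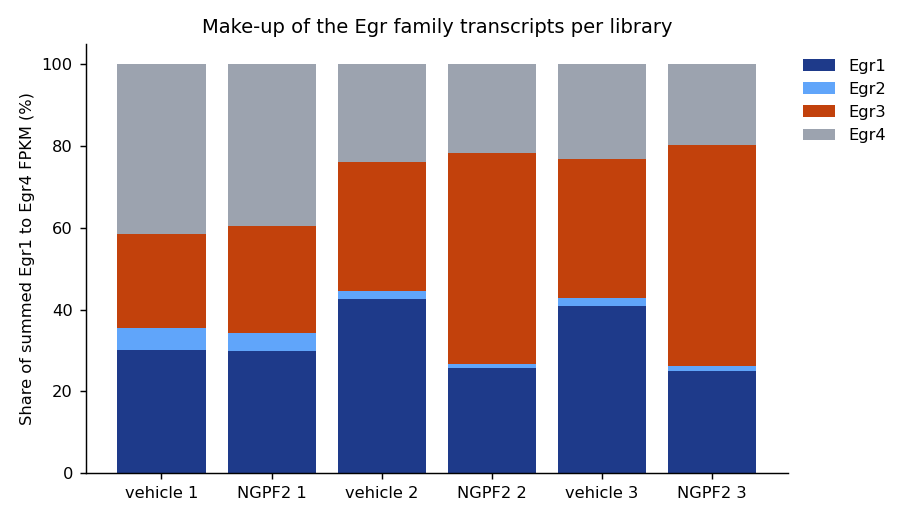
Share (y axis, percent) of each EGR gene in the summed Egr1 to Egr4 FPKM, 1 stacked bar per library in pair order. Egr3 takes more than 51% in NGPF2 2 and 3 and between 23.1% and 34.0% in the other libraries, while Egr4 is the largest share in both replicate 1 libraries.

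Of 9 listed cofactors of these factors 8 were kept, and in replicates 2 and 3, 2 rose and 1 fell, where 9.77% of all genes rose and 11.3% fell. Mrtfb, an MRTF coactivator of SRF, rose 1.49-fold and Fhl2, a LIM protein that binds SRF, rose 1.85-fold. Elk3, a ternary complex factor, fell 3.30-fold, from 445 and 478 normalized counts in vehicle 2 and 3 to 132 and 147 in NGPF2 2 and 3, with 255 and 257 in vehicle 1 and NGPF2 1. Mrtfa did not pass (0.35, adjusted p = 0.0702), and Nab2 stood at 984 and 1009 in vehicle 2 and 3 and at 949 and 928 in NGPF2 2 and 3. Of 13 genes of the ERK and CREB pathway, 4 rose, among them the kinases Mapk3 (1.65-fold) and Rps6ka2 (1.41-fold), (30.8% against 9.77% of all genes), and 1 fell (7.69% against 11.3%), the ERK kinase gene Map2k1 (log2 -0.29, named after its values were seen).

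Other immediate-early genes went both ways. Of 34 listed, 6 rose and 11 fell in replicates 2 and 3, where 9.77% of all genes rose and 11.3% fell, and the medians in pairs 1, 2 and 3 were -0.06, -0.17 and -0.13. Klf10, a TGF-beta-induced zinc finger factor, rose 1.73-fold. Trib1, a pseudokinase, fell 2.91-fold, Dusp1, a MAP kinase phosphatase, 2.36-fold and Ccn1, a secreted matrix protein, 3.33-fold, from 333 and 316 normalized counts in vehicle 2 and 3 to 111 and 84.4 in NGPF2 2 and 3. Fos, the AP-1 subunit, fell 1.56-fold while Junb rose 1.51-fold, both named after their values were seen.

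In replicates 2 and 3, 9.77% of all genes rose and 11.3% fell. Of 12 genes listed as EGR targets, 5 rose (Gabra4 1.65-fold, Arc 1.45-fold, Pdgfa 1.45-fold, Syn2 1.43-fold and Dlg4 1.23-fold) and 3 fell (F3 6.18-fold, Fn1 3.30-fold and Ptgs2 1.43-fold). Pdgfa, Dlg4, Fn1 and Ptgs2 were named after their values were seen. Arc, the activity-regulated synaptic gene, stood at 394 and 407 normalized counts in vehicle 1 and NGPF2 1, at 4739 and 5213 in vehicle 2 and 3, and at 7301 and 7134 in NGPF2 2 and 3. As with Egr3, the set difference in Arc (3.90, log2) was larger than the NGPF2 difference in replicates 2 and 3 (0.54). F3 encodes tissue factor, and it stood at 683 and 686 in vehicle 2 and 3 and at 100.4 and 120.2 in NGPF2 2 and 3.

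Of 20 cytoskeletal SRF targets, 7 rose and 4 fell in replicates 2 and 3 (35.0% and 20.0%, against 9.77% and 11.3% of all genes). Actg1, the cytoplasmic gamma actin, rose 1.64-fold and Tgfb1i1, a focal adhesion protein, rose by 1.32 (log2), beside Fhl2 above. Tagln (2.74-fold) and Cnn2 (2.02-fold) also rose, both named after their values were seen. The 4 that fell were Ccn1, Ccn2, Gsn and Tpm4, the last 3 named after their values were seen. Between the library sets the median of these targets was -0.93, with 12 lower and 3 higher in replicates 2 and 3 than in replicate 1. Of all genes, 13.5% were lower and 14.0% higher there. The medians of the NGPF2 differences in pairs 1, 2 and 3 were -0.05, 0.41 and 0.24. Of 11 relatives of the IER genes and genes of the HSF1 axis, 7 rose and 0 fell, against the same 9.77% and 11.3% of all genes. Ier5l, the closest relative of Ier5, stood at 475 and 503 normalized counts in vehicle 1 and NGPF2 1, at 562 and 621 in vehicle 2 and 3, and at 1369 and 1310 in NGPF2 2 and 3, a rise of 2.26-fold (limma adjusted p = 0.00315). The chaperone genes Hspa1b (2.00-fold) and Hsph1 (1.42-fold) and the PP2A catalytic subunit Ppp2ca (1.41-fold) rose as well. The median of this list was 0.04, 0.50 and 0.48 in pairs 1, 2 and 3.

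**Figure D5:**
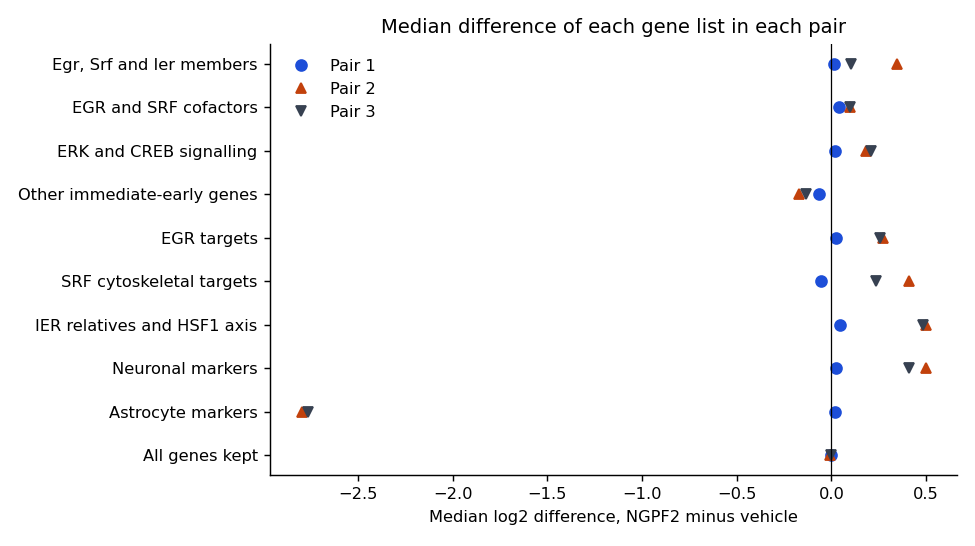
Median log2 difference (x axis) between NGPF2 and vehicle of the 7 genes, the 6 pathway lists, the pan-neuronal markers and the astrocyte markers (y axis) in pairs 1, 2 and 3, with all 16653 genes kept at the bottom and the other marker lists not drawn. In pair 1 the medians drawn lie between -0.06 and 0.04, and in pairs 2 and 3 the astrocyte markers lie at -2.80 and -2.76.

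Cell markers moved in the same 2 pairs in which Srf and Ier5 were higher with NGPF2. Egr3 was higher in these pairs and also in pair 1, by 0.32 (log2), where the astrocyte list had a median of 0.02. In replicates 2 and 3, 9.77% of all genes rose and 11.3% fell. Of the 14 astrocyte markers 13 were kept and 13 fell in replicates 2 and 3, and the list summed to 76951 to 82488 normalized counts in vehicle 2 and 3 and to 19421 to 24168 in NGPF2 2 and 3, with no marker at 0. In vehicle 1 and NGPF2 1 it summed to 37627 and 40469. The microglia list, with 8 of 11 markers lower, summed to 1045 to 1110 with vehicle and 379 to 382 with NGPF2 in replicates 2 and 3, and Aif1, Cx3cr1 and Itgam were each at 0 in at least 1 library. Of the 6 markers of oligodendrocyte precursors kept, 3 fell, and of the 12 of fibroblasts and mural cells, 5 fell and 1 rose (8.33%, near the share of all genes), with Lum at 0 in at least 1 library. Tagln, the marker that rose, is also counted above among the cytoskeletal SRF targets that rose, and Acta2 and Myl9 stand in both lists. None of the 3 endothelial markers kept passed, and Kdr was at 0 in at least 1 library. Of 8 pan-neuronal markers 5 rose and 0 fell, with a median difference of 0.45, and Rbfox3 rose by 0.58 (log2), beside 0.58 for Srf, 1.10 for Egr3 and 1.01 for Ier5. Map2 (-0.07, adjusted p = 0.548) and Snap25 (0.10, adjusted p = 0.338) did not pass. The excitatory list had 4 of 9 markers higher and 2 lower, and the inhibitory list 5 of 11 higher and 3 lower. Their part in the differences of the 7 genes and of the genes in the pathway lists, such as F3, Fn1 and Elk3, was not tested. In bulk RNA, fewer cells of a type and less RNA per cell cannot be told apart.

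The genes whose log2 values followed each member most closely over the 6 libraries were ranked by Pearson's r among 11266 genes with a mean of at least 100 normalized counts. The libraries fall into 3 levels (replicate 1, vehicle 2 and 3, NGPF2 2 and 3), so a high r says little more than that a gene has the same order of levels, and no test was made. For Egr1 these were Ccn3 (r = 0.999), Nab2 (r = 0.999) and Kcnq3 (r = 0.998), and Nab2 stood at 558, 984 and 1009 normalized counts in vehicle 1, 2 and 3, and at 579.5, 949 and 928 in NGPF2 1, 2 and 3. For Egr3 they were Dynll2, Cacng2 and Wwc1, for Egr4 Olfm2, Ldb2 and Thy1, and for Egr2 Ppt1, Pik3c3 and the pseudogene Rps12-ps3, whose reads may belong to its parent gene. For Srf they were Hras, Ppp1r10 and Fdps, for Ier2 Pdpk1, Map2k1 and Napb, and for Ier5 Rnf112, Chrm3 and Kif1bp. All of these had r of 0.991 or more.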

How the data were processed

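RNA from 6 cultures (3 vehicle, 3 NGPF2) was extracted with TRIzol and enriched for mRNA on oligo(dT) beads before library PCR, per the labels' protocols. STAR 2.5, FastQC, DESeq 1.22.1, Cuffnorm and the build mm10 are listed, without role or order, per the submitters' processing notes. The sources used here give no annotation, counter or strand setting. No exon of the 7 genes overlaps an exon of another gene in GENCODE M21 (mm10), from which coordinates and lengths were taken.

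Although its name says FPKM, the table deposited by the authors holds log2 values of normalized counts with 1 added. After back-transformation 100% of the values were whole multiples of 1 step per library (tolerance 0.01), and the inverse of the step equalled the median-of-ratios size factor. Whole counts were recovered this way. The 2 columns without a library name, C3 and T3, were assigned to vehicle and NGPF2 by their initials, read as Control and Treatment. The sign of every pair 1 difference rests on that reading. Within their groups they were taken as replicate 1 by elimination, although the digit in their names is 3. A symbol was found for 31185 of 31245 identifiers.

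Differences were tested on the log2 values (pseudocount 1, mean of at least 10) with limma 3.58.1 in R 4.3.3, with a mean-variance trend, 2-sided, and Benjamini-Hochberg adjustment over 16653 genes at 0.05. The 3-pair fit had the replicate number as a block, after the series' design text. As a check, deviations from the group means correlated at r = 0.594, 0.299 and 0.333 between same-numbered libraries. The r was 0.342 between vehicle 2 and NGPF2 3, and 0.320 between vehicle 3 and NGPF2 2. The check therefore sets replicate 1 apart but cannot tell pair 2 from pair 3. Further fits used replicates 2 and 3 without a block, the interaction of group and library set, and the library set with the group. The fits were also run on simulated data, which held no difference between the library sets except in genes changed on purpose. How the fits behave with set differences like those of these libraries was not tested. Members and lists were chosen with earlier results of these data known. Beyond the members, the text names the 4 genes with the lowest p in each pathway list, the 3 of highest r for each member and a few marker genes, except that some genes of the ERK and CREB list are not reported here. Alternatives covered the pseudocount, filter, scaling, variance trend, voom, block and left-out libraries.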

Additional observations from a re-analysis of the deposited data

Results flagged for a closer look

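The NGPF2 effect on Ier5 differed between the library sets by a test of the difference itself, by 1.06 (log2, SE 0.13, limma adjusted p = 0.0310). The single pairs gave -0.06 (pair 1), 1.04 (pair 2) and 0.98 (pair 3). The result passed with the replicate block (adjusted p = 0.0389) and missed the threshold without a variance trend (adjusted p = 0.120) and when any 1 of the 4 libraries of replicates 2 and 3 was left out (adjusted p from 0.0533 to 0.345).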

How the results depend on the processing

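Of 343 values of the 7 genes under the alternatives, 313 kept direction and side of the threshold, 18 lost and 11 gained significance, and 1 reversed: the interaction of Egr2 was 0.15 with quantile scaling. Counts of genes past the threshold moved as follows, and the causes were not tested. Over the 3 pairs, 1 gene passed with a pseudocount of 8, 1 with no replicate block and 1 with the library set as block (added after the data were seen), and 0 to 3275 when 1 pair was left out, the highest without replicate 1. In replicates 2 and 3, 1074 passed with no filter, 1535 with no variance trend, and 0 to 3206 with 1 library left out. For library total scaling the split was 982 higher and 2664 lower, against 1627 and 1884. For the interaction, 4684 passed with no filter, 733 with a minimum of 50, 22 with no variance trend, 1368 with voom, and 0 to 412 with 1 library left out. Between the library sets, 2772 to 5540 passed with 1 library left out. The replicate block in replicates 2 and 3 gave 3275 genes and ended the call for Egr1 and for none of the other 6 genes. Depth limits Egr2 and Ier2 most, with 129 to 310 and 215 to 506 counts per library.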
